A study of Mus musculus with 14 samples.

Results

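The response of triceps muscle to 6 weeks of voluntary wheel running was followed across 2 genotypes, as the response that WT and FLExDUX4 mice had in common. The data were gene counts from 14 male mice: 4 WT runners, 4 FLExDUX4 runners, 3 WT controls and 3 FLExDUX4 controls that did not run. All 14 mice of the series entered the comparison, 8 as runners and 6 as controls. For each of 11088 tested genes, of 52550 in the table, the difference between runners and controls was taken in each genotype and the 2 differences were averaged with equal weight. The WT mice were littermates of the FLExDUX4 mice. FLExDUX4 mice carry a human DUX4 transgene that is switched on by Cre recombinase, and are used to model facioscapulohumeral muscular dystrophy. The labels used here name no Cre driver and no inducing agent, and give no age, running distance or time of tissue collection. By its title, the study asked whether aerobic exercise improves the molecular and functional deficits of this model.

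Voluntary wheel running is endurance exercise. In skeletal muscle it is known to shift fibres from the fast, glycolytic type with IIb myosin towards types with IIa or IIx myosin, to enlarge the mitochondrial network, and to raise the capacity to burn fatty acids. It is also known to add capillaries, which are formed by endothelial cells under growth factors such as VEGF. PGC-1α, encoded by Ppargc1a, works with the oestrogen-related receptors and the nuclear respiratory factors on genes of respiration. Feeding and activity also set the muscle clock, in which BMAL1 and CLOCK drive repressors such as the PER proteins and the REV-ERB receptors.

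Gene counts per library ran from 3269357 to 6995811, so that each CPM (a read count relative to the library total) stood for 3.27 to 7 reads. The tissue carried the marks of fast muscle. Myh4, the IIb myosin heavy chain, made up 93.1% to 98.9% of the summed counts of Myh7, Myh2, Myh1 and Myh4 in the 6 controls. In the runners this share was 70.9%, 89.0%, 94.9% and 75.8% in WT and 83.6%, 71.0%, 88.4% and 96.5% in FLExDUX4. Within each genotype, all runners were below all controls except FLExDUX4 runner 4, which was above its controls at 93.1% to 95.8%. The same mouse had the lowest share of mitochondrial genome counts among the runners, 26.6%, against up to 39.8% in FLExDUX4 runner 2 and 20.5% to 29.2% in controls. How far any mouse ran is not given in the labels, so its part in these values was not tested.

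Running changed 95 of the 11088 tested genes in the averaged contrast (0.857%; edgeR quasi-likelihood test, Benjamini-Hochberg adjusted p under 0.05). Of these, 61 rose (0.55%) and 34 fell (0.307%). All 95 had the same sign in WT and in FLExDUX4, against 56.3% of all tested genes. An averaged contrast favours genes that move the same way in both genotypes, so this count is a description. At an unadjusted p under 0.05 in each genotype's own contrast, 68 of the 95 passed in both and the other 27 passed in WT only. The median log2 difference of the genes that rose was 0.84 in WT and 0.49 in FLExDUX4. For the genes that fell it was -0.62 in WT and -0.47 in FLExDUX4. The WT difference was the larger in size for 79 of the 95 genes.

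The contrasts within each genotype were less able to name genes. WT mice alone gave 55 calls (0.496%), and FLExDUX4 mice alone gave 0 by edgeR, DESeq2 and limma-voom, with 738 genes at an unadjusted edgeR p under 0.05. A test that required the difference in each genotype separately gave 0 calls by the same 3 tools, with 148 genes at an unadjusted p under 0.05 in both (1.33%). WT calls ran from 0 without WT control 1 and 2 without WT runner 4 to 197 without WT runner 3, and were 604 with libraries scaled by spike-in RNA. FLExDUX4 calls were 24 with no low-count filter. Of the 95 genes called in the averaged contrast, 57 were called in neither genotype's own contrast. All 95 had an unadjusted edgeR p under 0.05 in WT, 27 of them in WT only. The difference between the genotypes' running effects was itself tested, and it gave 0 calls by the 3 tools, with 537 genes (4.84%) at an unadjusted edgeR p under 0.05. Among the 95 called genes, 13 had an unadjusted p under 0.05 for that difference. A missing call does not show that the effects were equal. The number of calls depended on single mice, from 17 without FLExDUX4 control 1 to 286 without FLExDUX4 runner 4, and with 1 surrogate variable in the model it was 2. When libraries were scaled by spike-in RNA added to each sample, the median log2 difference of all tested genes moved from 0.01 to 0.21 and 430 genes were called, 97.4% of them higher in runners against 64.2% of the 95.

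The genes called in WT were then read in the FLExDUX4 mice, which share no library with them. Of the 55 genes, 49 (89.1%) had the same sign in FLExDUX4, against 56.3% of all tested genes. An unadjusted p under 0.05 with the same sign was reached by 20 of them (36.4%), against 4.60% of all tested genes. The 44 genes that rose in WT had a median log2 difference of 1.04 there and 0.32 in FLExDUX4. They were chosen by their WT values, which favours a larger WT median, so the 2 medians do not measure the relative size of the response. Of the 6 genes with opposite signs, Pim3, a serine/threonine kinase, stood apart with 1.04 in WT and -0.71 in FLExDUX4, and it was named after its values were seen. Across all tested genes, which are not independent replicates, the log2 differences of the 2 genotypes had a Pearson r of 0.15 and a Spearman rho of 0.16.

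**Figure D1:**
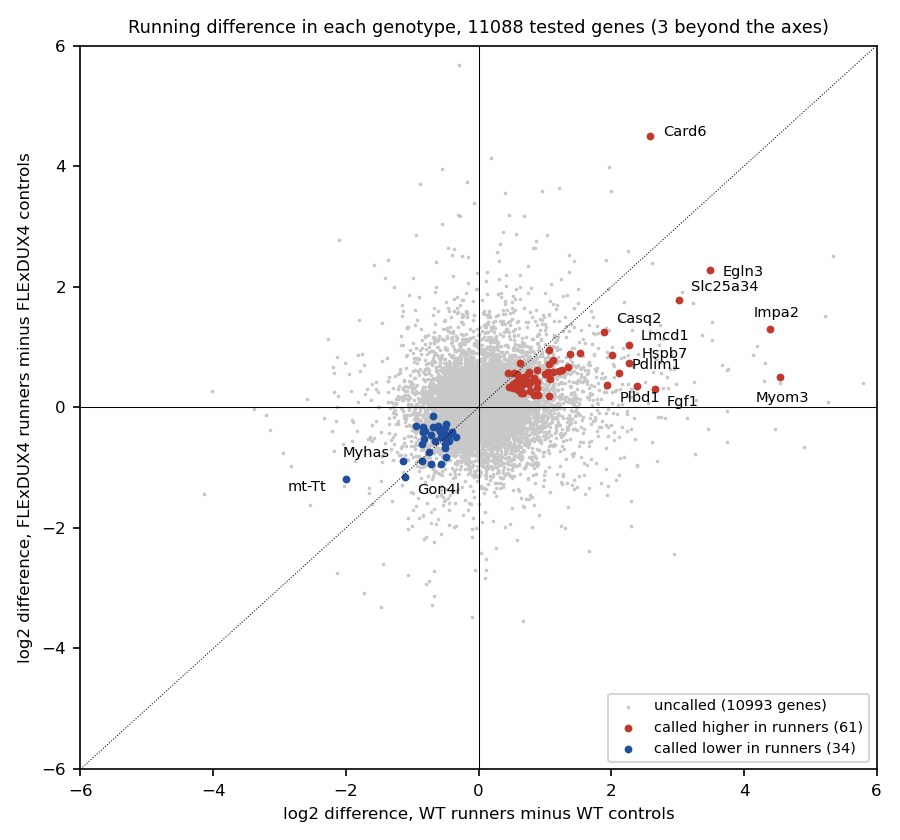
Each point is 1 of 11088 tested genes, placed by its log2 difference between runners and controls in WT (x axis) and in FLExDUX4 (y axis). The 61 called genes that rose (red) lie in the upper right quadrant and the 34 that fell (blue) in the lower left, mostly on the WT side of the dotted line of equal size, and 3 genes lie beyond the axes.

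The largest averaged log2 differences among called genes were 3.54 for Card6, 2.88 for Egln3, 2.84 for Impa2, 2.53 for Myom3 and 2.40 for Slc25a34. Card6 and Impa2 were under 5 CPM on average in runners and in controls, so their sizes rest on few reads. Egln3 encodes PHD3, a prolyl hydroxylase that marks hypoxia-inducible factors for degradation. It measured 2.73, 3.24 and 4.81 CPM in WT controls and 73.2, 36.6, 15.8 and 32.7 CPM in WT runners. In FLExDUX4 it measured 4.66, 6.98 and 9.26 CPM in controls and 28.8, 60.0, 33.1 and 19.4 CPM in runners. Every runner of either genotype was above every control. The averaged log2 difference was 2.88 ± 0.41 (SE; adjusted p = 0.0122), a 7.37-fold increase. Egln3 spans chromosome 12, 54178981 to 54203860, minus strand, on GRCm38.

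Slc25a34, a member of the mitochondrial carrier family, also rose without overlap. It measured 0.841, 1.51 and 2.11 CPM in WT controls and 18.8, 11, 3.86 and 13.8 CPM in WT runners. In FLExDUX4 the values were 2.19, 3.74 and 2.70 CPM in controls and 7.19, 20.5, 8.13 and 4.70 CPM in runners. The lowest runner was WT runner 3, just above the highest control. The averaged log2 difference was 2.40 ± 0.38 (adjusted p = 0.00241), or 5.28-fold. Its log2 difference was 3.02 ± 0.56 in WT and 1.78 ± 0.51 in FLExDUX4. Slc25a34 was the only called member among 26 tested mitochondrial carriers of the list, whose median log2 difference was 0.01, the same as over all tested genes. Slc25a20, a carrier of the same family that was counted in the fatty acid list instead, was also called (0.78, adjusted p = 0.00773).

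Myl12a had the smallest p of all. It encodes a regulatory light chain of non-muscle and smooth muscle myosin, and lies on chromosome 17, 70993656 to 71002878, minus strand, where it overlaps its near-identical neighbour Myl12b and the gene Myom1. It measured 151, 196 and 154 CPM in WT controls and 260, 296, 274 and 294 CPM in WT runners. In FLExDUX4 it measured 165, 222 and 183 CPM in controls and 262, 350, 257 and 250 CPM in runners. All runners were above all controls, and the difference was 0.75 ± 0.15 in WT and 0.56 ± 0.15 in FLExDUX4 on the log2 scale. The averaged difference was 0.65 ± 0.11 (adjusted p = 0.00241). Myl12b itself differed by 0.28 ± 0.33 (adjusted p = 0.823), and how the counting treated reads that fit both genes is not given in the sources used here.

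Across all 14 mice, 41 tested genes had runners and controls that did not overlap (0.37%), 19 with runners higher (0.171%) and 22 with runners lower (0.198%). Of the 95 called genes, 15 were in this set. The 5 that rose were Myl12a, Slc25a34, Egln3, Olfm1, a secreted olfactomedin protein, and Card6, which has a caspase recruitment domain. The 10 that fell were Palld, Tmem233, Jph2, Vps37a, Adcy9, Ryr1, Gpd2, Metap2, Ppp3ca and Rhobtb1. Vps37a, Adcy9, Gpd2, Metap2 and Card6 were named after their values were seen. Card6 was near the detection limit, at 0 to 0.864 CPM in controls and 0.903 to 4.26 CPM in runners.

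**Figure D2:**
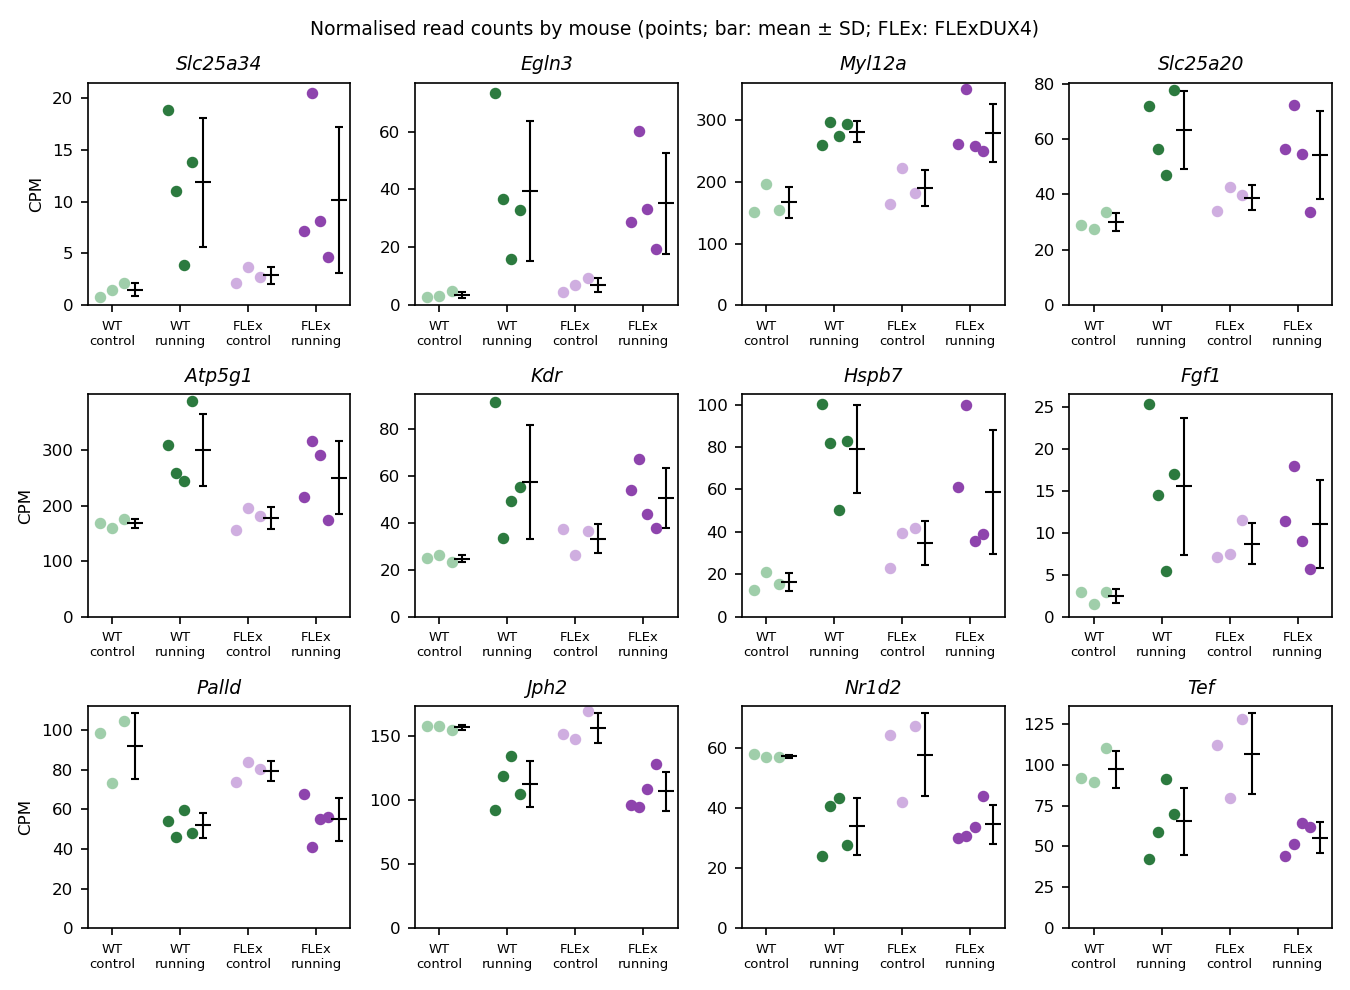
Normalised read counts (CPM, y axis) of 12 called genes in each mouse, by group (x axis), with the mean and SD of each group as bars. The top 2 rows hold genes that rose and the bottom row holds genes that fell. For Egln3 the 8 runners sit at 15.8 CPM or higher, above all 6 controls, whereas the Fgf1 controls of FLExDUX4 overlap their runners.

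Nuclear genes of the respiratory chain and the ATP synthase gave the longest group of increases. Of 79 tested members, 12 rose and 0 fell, beside 0.55% and 0.307% of all tested genes. All 79 had averaged differences above 0, and 75 had the same sign in both genotypes, against 56.3% of all tested genes. The list's median log2 difference was 0.34, with 0.46 in WT and 0.22 in FLExDUX4, against 0.01 over all tested genes. Atp5g1, which encodes the c-ring subunit of the ATP synthase, led the list. It measured 168, 160 and 176 CPM in WT controls, 310, 259, 245 and 388 CPM in WT runners, 156, 196 and 181 CPM in FLExDUX4 controls and 216, 317, 292 and 175 CPM in FLExDUX4 runners. All runners but FLExDUX4 runner 4 were above all controls. The averaged log2 difference was 0.67 ± 0.12 (adjusted p = 0.00773).

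Its paralogue Atp5g3, whose transcript encodes the same mature subunit, behaved alike, with 710 to 915 CPM in controls and 823 to 1508 CPM in runners. The averaged difference of Atp5g3 was 0.58 ± 0.12 (adjusted p = 0.0122). Of complex IV, which passes electrons to oxygen, Cox7a1, the muscle and heart form of its subunit, rose by 0.65 ± 0.13 (adjusted p = 0.0122) and Cox5b by 0.53 ± 0.11 (adjusted p = 0.0197). Uqcrq of complex III rose by 0.59 ± 0.13 (adjusted p = 0.025). Cox7b, Cox6b1, Ndufb10, Atp5e, Ndufa3, Cox8b and Cox4i1 rose by 0.40 to 0.47. The count of calls in the list moved with single mice. Without FLExDUX4 runner 4, 41 of the 79 rose, and without FLExDUX4 control 1 only 1 did, while all 79 stayed above 0 in both cases and the medians were 0.38 and 0.31.

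The mitochondrial genome followed with a similar size of difference. All 8 tested members were above 0, with a median log2 difference of 0.38, but only mt-Co1, which encodes a catalytic subunit of complex IV, passed the test. It measured 3391, 4293 and 3784 CPM in WT controls, 5183, 6210, 4578 and 6590 CPM in WT runners, 5241, 5000 and 3379 CPM in FLExDUX4 controls and 6257, 7372, 6047 and 4512 CPM in FLExDUX4 runners. WT groups did not overlap, whereas FLExDUX4 runner 4 fell among its controls. The averaged difference was 0.49 ± 0.12 (adjusted p = 0.0401). In the TCA cycle and pyruvate entry 0 of 26 genes were called, at a median of 0.20. For mitochondrial import, dynamics and cristae 0 of 33 were called, at a median of 0.06, and for branched-chain amino acid breakdown 0 of 20, at 0.07. With spike-in scaling, 10, 5 and 3 genes of these lists were called higher, and without FLExDUX4 runner 4, 4 of the 26 TCA and pyruvate genes were.

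Of 29 tested genes of fatty acid uptake and oxidation, 6 rose and 0 fell, at a median log2 difference of 0.52 (0.77 in WT and 0.26 in FLExDUX4). Of all tested genes, 0.55% rose and 0.307% fell, at a median of 0.01. These shares stand beside the counts of all lists below as well. Slc25a20 encodes the carnitine and acylcarnitine translocase, which carries fatty acids into the mitochondrial matrix. It measured 28.8, 27.4 and 33.7 CPM in WT controls, 71.8, 56.3, 47.1 and 77.7 CPM in WT runners, 34.0, 42.6 and 39.9 CPM in FLExDUX4 controls and 56.6, 72.1, 54.5 and 33.8 CPM in FLExDUX4 runners. Only FLExDUX4 runner 4 fell within the range of the controls. The averaged difference was 0.78 ± 0.15 (adjusted p = 0.00773). Cd36, the fatty acid translocase of the cell surface, rose by 1.13 ± 0.23 (adjusted p = 0.0452), from 49.3 to 86.5 CPM in controls to 77.0 to 203 CPM in runners.

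Etfa and Etfb, the subunits of the flavoprotein that passes electrons from fatty acid oxidation to the respiratory chain, rose by 0.56 ± 0.13 and 0.52 ± 0.12. They differed in how evenly the genotypes contributed. Etfa moved by 0.57 in WT and 0.56 in FLExDUX4, and Etfb by 0.83 and 0.21. Hadh, a dehydrogenase of beta oxidation, and Acot13, an acyl-CoA thioesterase, rose by 0.52 and 0.54. Of the lipid droplet genes, 3 of 16 rose: the droplet coat genes Plin5 (1.38 ± 0.33) and Plin3 (0.78 ± 0.18), and Pnpla2 (0.44 ± 0.10), the lipase that starts the breakdown of stored fat. Plin5 shows how the mean can rest on WT, since it measured 1.26 to 3.02 CPM in WT controls and 3.25 to 15.0 CPM in WT runners, but 6.73 to 7.46 and 4.70 to 15.6 CPM in FLExDUX4. Without FLExDUX4 control 1, the fatty acid list kept 1 call of 29, and without FLExDUX4 runner 4 it had 15.

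Of 30 tested genes of glycolysis and glycogen, 0 rose and 1 fell, with a median log2 difference of -0.10, which was 0.10 when libraries were scaled by their spike-in RNA, where 4 rose and 0 fell. The gene that fell was Gpd1, the cytosolic glycerol-3-phosphate dehydrogenase of the shuttle that brings reducing equivalents to mitochondria. It measured 332, 241 and 276 CPM in WT controls, 126, 158, 196 and 155 CPM in WT runners, 214, 185 and 271 CPM in FLExDUX4 controls and 173, 121, 213 and 203 CPM in FLExDUX4 runners. The groups overlapped in FLExDUX4 and not in WT. Its averaged difference was -0.58 ± 0.12 (adjusted p = 0.0197). Gpd2, its mitochondrial counterpart, also fell, by 0.47 on the log2 scale.

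**Figure D3:**
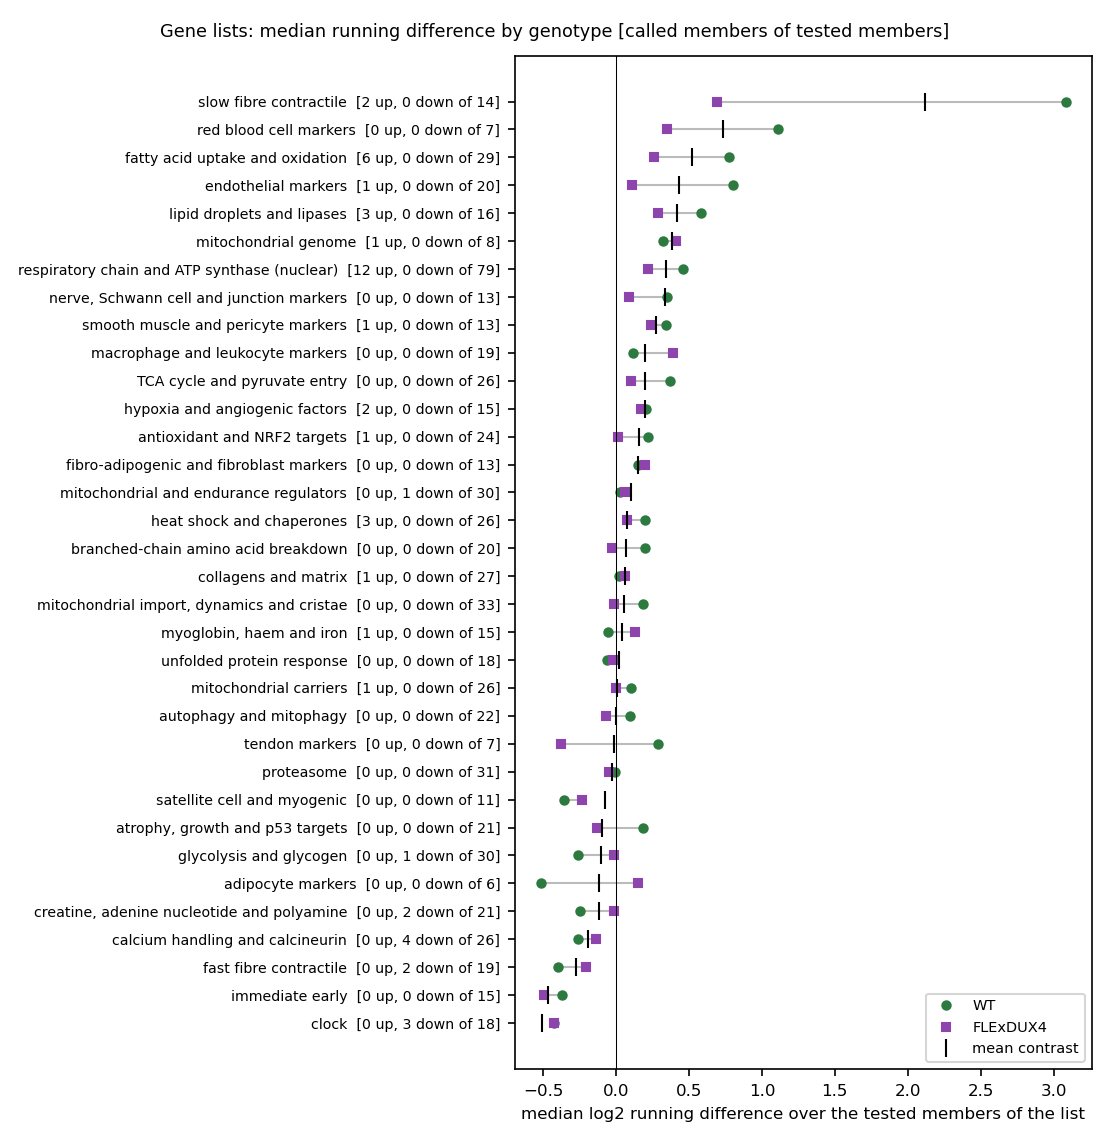
Median log2 difference between runners and controls (x axis) over the tested members of 34 gene lists (y axis), in WT (circles), in FLExDUX4 (squares) and for the averaged contrast (ticks), with called members in brackets. The slow fibre list reached 3.08 in WT and 0.70 in FLExDUX4, and the clock list lay at the bottom with an averaged median of -0.51.

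Fibre type genes had large differences and few calls. The slow fibre list had a median log2 difference of 2.12, with 3.08 in WT and 0.70 in FLExDUX4. All 14 tested members were above 0, and 2 of them were called. The summed level of the list overlapped, at 82.7 to 622 CPM in controls and 128 to 1304.5 CPM in runners. Without FLExDUX4 control 1, 0 of the 14 were called, and without FLExDUX4 runner 4, 5 rose. Casq2, the cardiac and slow calsequestrin that stores calcium, measured 5.68, 6.91 and 4.51 CPM in WT controls, 35.4, 18.3, 11 and 21.1 CPM in WT runners, 6.31, 9.72 and 7.59 CPM in FLExDUX4 controls and 16.3, 36.9, 17.2 and 6.27 CPM in FLExDUX4 runners. All runners but FLExDUX4 runner 4 were above all controls, and the difference was 1.57 ± 0.35 (adjusted p = 0.0468). Myom3, a myomesin of the M-band, rose by 2.53 ± 0.51 (adjusted p = 0.0401), with 4.55 in WT and 0.51 in FLExDUX4. Its WT controls measured 0.301 to 1.30 CPM and its FLExDUX4 controls 9.48 to 14.8 CPM.

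Myosin heavy chains showed the same spread between mice. Myh2, the IIa myosin, measured 79.5, 54.0 and 57.2 CPM in WT controls, 2349, 643, 149 and 1337 CPM in WT runners, 461, 457 and 593 CPM in FLExDUX4 controls and 1096, 1646, 755 and 186 CPM in FLExDUX4 runners. WT runners were all above their controls, while FLExDUX4 runner 4 was below all of its own. The averaged difference of Myh2, 2.5 ± 0.63, did not pass the test (adjusted p = 0.107). Neither did those of Myh1, the IIx myosin (1.78 ± 0.36, adjusted p = 0.0571), Myh4 (-0.70 ± 0.20, adjusted p = 0.118) and the slow myosin Myh7 (1.81 ± 1.04, adjusted p = 0.552). The 4 myosin genes share long stretches of sequence, and reads could be divided between them.

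Of 19 tested fast fibre genes, 0 rose and 2 fell, and the median log2 difference was -0.27. With spike-in scaling 2 rose and 1 fell at a median of -0.08, and without FLExDUX4 runner 4, 2 rose and 6 fell. Mylk2, the skeletal myosin light chain kinase, which phosphorylates the regulatory light chain of fast myosin, measured 404, 315 and 241 CPM in WT controls, 211, 225, 232 and 246 CPM in WT runners, 351, 357 and 425 CPM in FLExDUX4 controls and 254, 131, 221 and 248 CPM in FLExDUX4 runners. FLExDUX4 groups did not overlap, and in WT only runner 4 passed the lowest control. The averaged difference was -0.65 ± 0.13 (adjusted p = 0.0119). Myom2, the M-band myomesin of fast fibres, fell by 0.43 on the log2 scale (adjusted p = 0.0334). Myhas, an antisense gene of the fast myosin cluster that overlaps Myh1, differed by -0.87 ± 0.18 (adjusted p = 0.0186). Myh1 differed the opposite way, by 1.78 (adjusted p = 0.0571). The strand setting of the counting is not given, so how reads from the overlap of Myhas and Myh1 were assigned is not known.

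Myoglobin, which stores oxygen in oxidative fibres, did not pass the test. Mb measured 356, 389 and 338 CPM in WT controls, 3794, 1687, 1173 and 4130 CPM in WT runners, 762, 1387 and 1235 CPM in FLExDUX4 controls and 2000, 3816, 1856 and 651 CPM in FLExDUX4 runners. The groups were apart in WT, and in FLExDUX4 they were apart but for runner 4, which was below all of its controls. The averaged difference was 1.89 ± 0.42 (adjusted p = 0.0774). In the list of myoglobin, haem and iron genes, 1 of 15 was called, Alas1, the first enzyme of haem synthesis (0.45 ± 0.11, adjusted p = 0.0463).

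Of 26 tested genes of calcium handling and calcineurin, 0 rose and 4 fell, and the median log2 difference was -0.19. With spike-in scaling 2 rose and 0 fell, at a median of 0.0054. Jph2, junctophilin 2, which holds the sarcoplasmic reticulum to the transverse tubule, measured 158, 158 and 155 CPM in WT controls, 92.4, 119, 135 and 105 CPM in WT runners, 152, 148 and 170 CPM in FLExDUX4 controls and 96.2, 95, 109 and 128 CPM in FLExDUX4 runners. No runner reached any control. The averaged difference was -0.51 ± 0.10 (adjusted p = 0.0133), with -0.48 in WT and -0.55 in FLExDUX4.

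Ryr1, the calcium release channel of the sarcoplasmic reticulum, measured 1273, 1317 and 1313 CPM in WT controls, 1064, 1234, 998 and 808 CPM in WT runners, 1423, 1241 and 1357 CPM in FLExDUX4 controls and 1018, 793, 1060 and 945 CPM in FLExDUX4 runners. The groups did not overlap, by a narrow margin between WT runner 2 and FLExDUX4 control 2. Ryr1 differed by -0.42 ± 0.10 (adjusted p = 0.0354). Ppp3ca, the catalytic subunit of the phosphatase calcineurin, differed by -0.38 ± 0.10 (adjusted p = 0.043), and Camk2a, a calcium and calmodulin-dependent kinase, by -0.48 ± 0.11 (adjusted p = 0.0289). Without FLExDUX4 control 1, only 1 of the 26 fell, and without FLExDUX4 runner 4, 6 fell and 1 rose.

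Palld encodes palladin, an actin scaffold protein of the Z-disc, and lies on chromosome 8, 61511433 to 61902690, minus strand. It measured 98.4, 73.2 and 105 CPM in WT controls, 54.0, 46.2, 59.7 and 48.0 CPM in WT runners, 74.1, 83.8 and 80.3 CPM in FLExDUX4 controls and 67.6, 40.9, 55.4 and 56.0 CPM in FLExDUX4 runners. All 8 runners were below all 6 controls. Its difference was -0.68 ± 0.12 (adjusted p = 0.00653). Tmem233, a small membrane protein, was also lower in all runners, with 238 to 315 CPM in controls and 130 to 233 CPM in runners (-0.60 ± 0.11, adjusted p = 0.00773). Pdlim1, a PDZ and LIM domain protein of actin bundles, went the other way, by 1.34 ± 0.24 (adjusted p = 0.00701), with 2.12 in WT and 0.56 in FLExDUX4.

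Among adenine nucleotide, creatine and polyamine genes, 2 of 21 fell and 0 rose, at a median of -0.12. With spike-in scaling 0 were called and the median was 0.08. Ampd1, the muscle AMP deaminase, fell by 0.49 (adjusted p = 0.0452). Mat2a, which makes S-adenosylmethionine, fell by 0.60 (adjusted p = 0.0203), from 142 to 362 CPM in controls to 133 to 171 CPM in runners, and overlaps the antisense gene Particl.

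Of 18 tested clock genes, 0 rose and 3 fell, and the median log2 difference was -0.51 (-0.32 with spike-in scaling, where 1 rose and 4 fell), with negative medians in both genotypes. Nr1d2 encodes REV-ERBβ, a repressor of Bmal1. It measured 57.8, 56.8 and 56.9 CPM in WT controls, 23.9, 40.7, 43.2 and 27.8 CPM in WT runners, 64.2, 41.9 and 67.2 CPM in FLExDUX4 controls and 30.1, 30.7, 33.7 and 44.0 CPM in FLExDUX4 runners. In WT the groups were apart, and in FLExDUX4 only control 2 lay among the runners. The difference was -0.74 ± 0.14 (adjusted p = 0.00773), with -0.75 in WT and -0.73 in FLExDUX4.

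Tef, a PAR bZIP transcription factor of clock output, measured 92.1, 89.2 and 110 CPM in WT controls, 42.5, 58.6, 91.4 and 69.5 CPM in WT runners, 112, 79.5 and 128 CPM in FLExDUX4 controls and 44.1, 51.4, 64.4 and 61.9 CPM in FLExDUX4 runners. It was lower in all FLExDUX4 runners and in all WT runners but runner 3, which lay among its controls. Tef differed by -0.76 ± 0.14 (adjusted p = 0.00773). Rora, an activator of Bmal1, differed by -0.48 ± 0.11 (adjusted p = 0.0278). Usp2, a deubiquitinase with daily rhythm that is not in the clock list, differed by -0.83 ± 0.16 (adjusted p = 0.028).

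Larger differences in other clock genes did not pass the test, and they are named here after their values were seen. Per2 differed by -2.44 ± 0.57 (adjusted p = 0.0712), Per3 by -1.54 ± 0.38 (adjusted p = 0.0869) and Dbp by -1.61 ± 0.45 (adjusted p = 0.14). Dbp was even in the genotypes, with -1.61 in WT and -1.60 in FLExDUX4. Arntl, which encodes BMAL1, differed the opposite way, by 1.04 ± 0.35 (adjusted p = 0.189). The time of day at which runners and controls were sampled is not given in the labels, and its part in these differences was not tested.

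Among 30 tested regulators of mitochondria and endurance, 0 rose and 1 fell, and the median log2 difference was 0.10 (with spike-in scaling 1 rose and 0 fell, at 0.29). Ppargc1a measured 49.2, 49.9 and 45.4 CPM in WT controls, 73.0, 79.0, 44.1 and 66.0 CPM in WT runners, 55.1, 78.5 and 82.5 CPM in FLExDUX4 controls and 78.7, 73.5, 54.8 and 58.0 CPM in FLExDUX4 runners. The groups overlapped in both genotypes and the difference was 0.16 ± 0.13 (adjusted p = 0.699), with 0.44 in WT and -0.12 in FLExDUX4. The gene that fell was Nrip1, which encodes RIP140, a corepressor of oxidative metabolism in muscle (-0.60 ± 0.14, adjusted p = 0.0335). Its levels were 61.8 to 106 CPM in controls and 39.8 to 76.0 CPM in runners.

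Pdk4, the pyruvate dehydrogenase kinase that spares glucose, differed by 0.88 ± 0.46 (adjusted p = 0.491) and ranged from 32.9 to 314 CPM in controls. Cdkn1a, which encodes the cell cycle inhibitor p21, differed by 1.03 ± 0.26 (adjusted p = 0.0712). None of 21 genes of atrophy, growth and p53 was called, at a median of -0.10 (0.08 with spike-in scaling). Autophagy and mitophagy genes and proteasome subunits gave 0 calls of 22 and 0 of 31. Immediate early genes, which answer recent activity or handling, gave 0 calls of 15 at a median of -0.47.

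Of 26 tested genes of heat shock and chaperones, 3 rose and 0 fell, with a median of 0.07. Hspb7, a heat shock protein of heart and muscle that binds filamin, measured 12.8, 21 and 15.3 CPM in WT controls, 100.3, 81.9, 50.6 and 83.0 CPM in WT runners, 23.0, 39.4 and 41.9 CPM in FLExDUX4 controls and 61.0, 99.6, 35.8 and 39.1 CPM in FLExDUX4 runners. WT groups were far apart, and 2 of the 4 FLExDUX4 runners lay among their controls. Hspb7 differed by 1.50 ± 0.27 (adjusted p = 0.0315). Cryab, which encodes αB-crystallin, differed by 0.89 ± 0.17 (adjusted p = 0.0287), and its neighbour Hspb2, which overlaps it on the other strand, by 0.09 ± 0.15. Dnaja4, a co-chaperone of HSP70, differed by 0.67 ± 0.14 (adjusted p = 0.0176). Of the antioxidant genes 1 of 24 rose, Sod2, the superoxide dismutase of mitochondria (0.44 ± 0.11, adjusted p = 0.0353). None of 18 genes of the unfolded protein response was called.

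Capillaries were read from their endothelial cells. Of 20 tested endothelial markers 1 was called, and the median log2 difference was 0.43, with 0.80 in WT and 0.11 in FLExDUX4. The same sign in both genotypes was held by 12 of the 20, against 56.3% of all tested genes. Endothelial calls were 5 with spike-in scaling, 3 without FLExDUX4 runner 4 and 0 without FLExDUX4 control 1. Kdr, which encodes the VEGF receptor 2 of endothelial cells, measured 24.8, 26.1 and 23.5 CPM in WT controls, 91.2, 33.7, 49.3 and 55.4 CPM in WT runners, 37.3, 26.2 and 36.4 CPM in FLExDUX4 controls and 53.8, 67.0, 44.0 and 37.9 CPM in FLExDUX4 runners. Within each genotype no runner overlapped a control. Kdr differed by 0.90 ± 0.18 (adjusted p = 0.0197). In whole muscle, more endothelial cells and more RNA per cell cannot be told apart. The summed level of the list was 391.7 to 542 CPM in controls and 379 to 656 CPM in runners.

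Of 15 tested genes of hypoxia and angiogenic factors 2 rose, Egln3 and Fgf1, a fibroblast growth factor. Fgf1 measured 2.94, 1.51 and 3.01 CPM in WT controls, 25.3, 14.6, 5.48 and 17 CPM in WT runners, 7.13, 7.48 and 11.6 CPM in FLExDUX4 controls and 11.5, 18, 9.03 and 5.70 CPM in FLExDUX4 runners. Its increase of 1.48 ± 0.31 (adjusted p = 0.0197) came mostly from WT, where it was 2.65 against 0.30 in FLExDUX4. That difference between the genotypes had an unadjusted p of 0.000575 and an adjusted p of 0.758. Vegfa overlapped between runners and controls and differed by 0.20 ± 0.30 (adjusted p = 0.88). Rgs5, a marker of pericytes, was the 1 gene called of 13 for smooth muscle and pericytes (0.46 ± 0.11, adjusted p = 0.0389).

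Markers of the other cell types gave no calls except in the matrix list. Among fibroblast, macrophage, satellite cell, nerve, tendon and adipocyte markers, 0 of 13, 0 of 19, 0 of 11, 0 of 13, 0 of 7 and 0 of 6 were called. The summed macrophage and leukocyte markers were 114 to 226 CPM in controls and 155 to 281 CPM in runners. With spike-in scaling, 2 fibroblast, 1 nerve and 1 adipocyte marker rose. Red blood cell genes had a median difference of 0.73 with 0 of 7 called, and their summed level was 555 to 1087 CPM in controls and 577 to 1947 CPM in runners. Without FLExDUX4 runner 4, 4 of the 7 red blood cell genes were called higher, at a median of 0.89, and with spike-in scaling 1 was. Blood in the sample and its part in other differences were not tested. Of 27 collagen and matrix genes 1 rose, Bgn, which encodes the proteoglycan biglycan (1.01 ± 0.23, adjusted p = 0.0287), while Col1a1 differed by -0.09 ± 0.14 (adjusted p = 0.878). Aspn, which encodes the matrix protein asporin and is outside this list, was also called higher (0.95). It was named after its value was seen.

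The remaining named genes came from the rules on size and on p. Among those that rose, Lmcd1, a LIM domain protein of the Z-disc region, measured 8.12 to 31.4 CPM in controls and 23.7 to 94.2 CPM in runners (1.65 ± 0.31, adjusted p = 0.0375). Tppp3, a tubulin-binding protein, rose from 19.4 to 19.8 CPM in WT controls to 35.0 to 37.0 CPM in WT runners, and from 21.2 to 41.2 to 37.9 to 53.3 CPM in FLExDUX4 (0.75 ± 0.14, adjusted p = 0.00773). Plbd1, a phospholipase B domain protein, rose by 1.93 in WT and 0.37 in FLExDUX4. Iqsec2, an exchange factor for ARF GTPases, rose by 1.44 ± 0.32. Among those that fell, Gon4l, a nuclear regulator of transcription, differed by -1.13 ± 0.24, Tiam1, an exchange factor for RAC, by -1.02 ± 0.25, and Rhobtb1 by -0.74 ± 0.19.

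**Figure D4:**
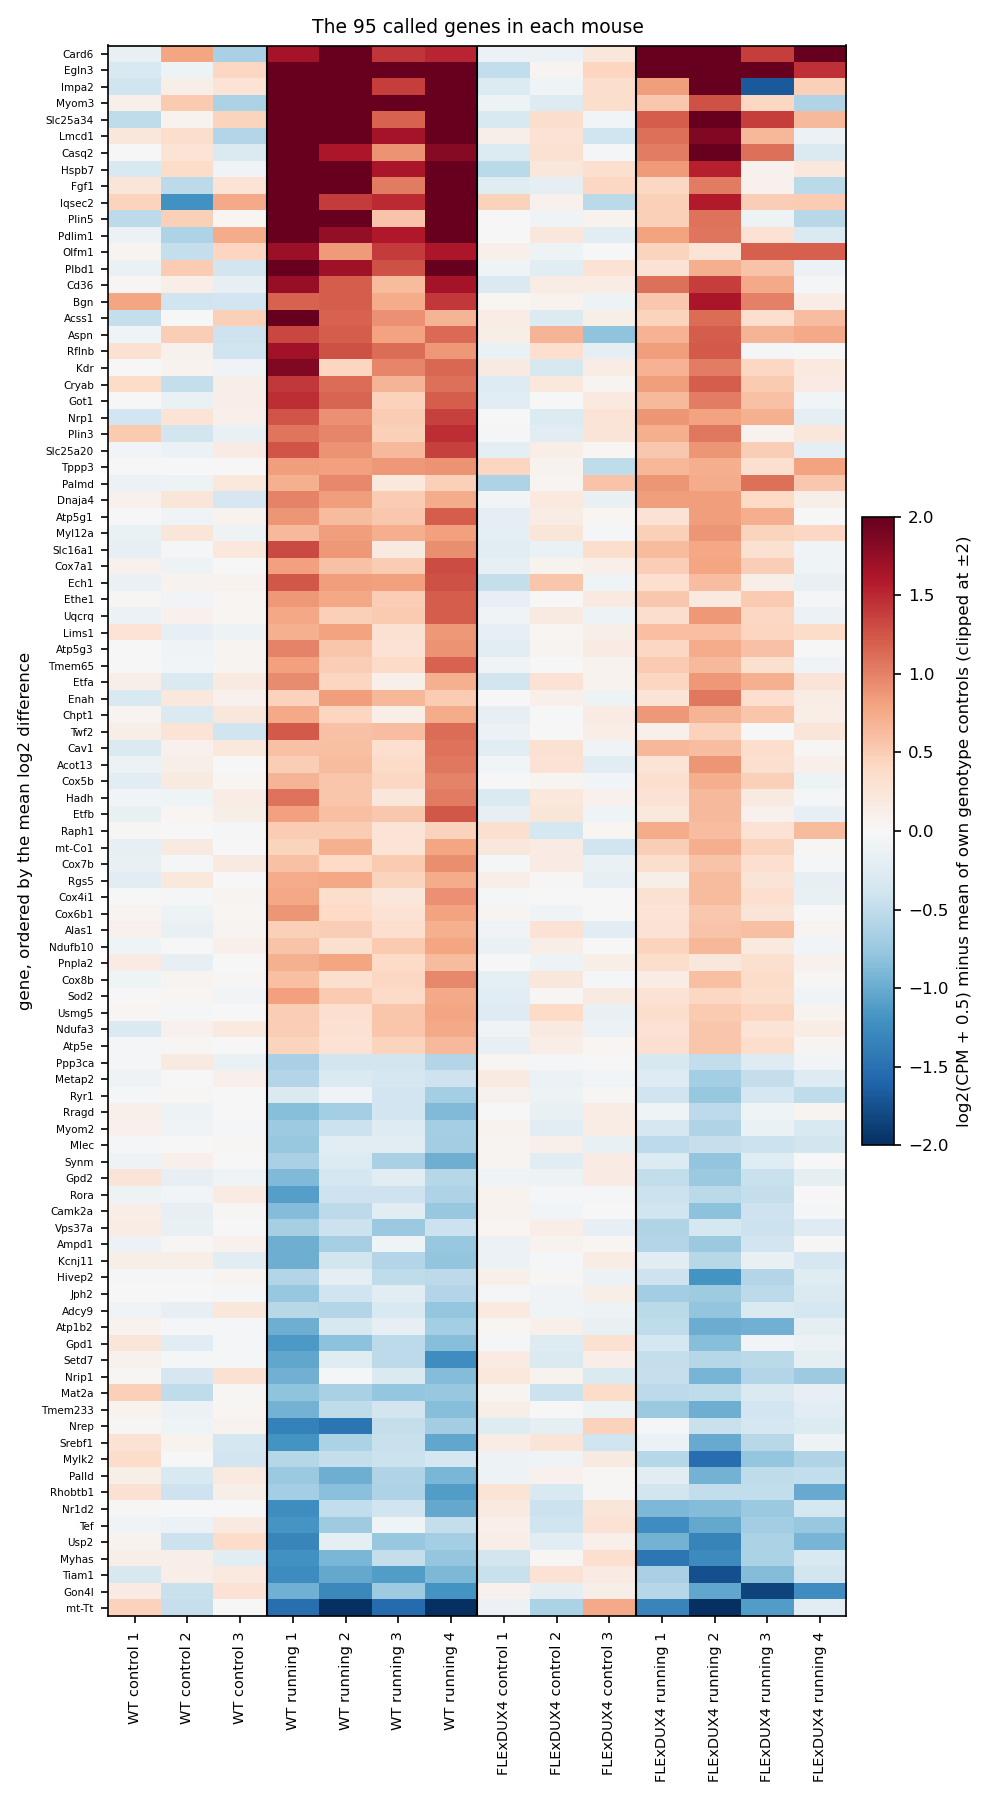
Log2 level of the 95 called genes (y axis) in each of the 14 mice (x axis), relative to the mean of the controls of the same genotype, with red for higher and blue for lower. Colours end at a log2 level of 2 in either direction. The runner columns are mostly red above and blue below, and FLExDUX4 runner 4 is the palest among them, with a median of 0.02 over the genes that rose.

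The shared response was read in single mice as the median log2 level over the 61 genes that rose, relative to controls of the same genotype. These genes were chosen with the same mice, so the values are a description. They were 0.99, 0.82, 0.54 and 1.10 in WT runners and 0.49, 0.79, 0.41 and 0.02 in FLExDUX4 runners. Over the 34 genes that fell they were -0.92, -0.48, -0.42 and -0.76 in WT and -0.48, -0.79, -0.47 and -0.27 in FLExDUX4. FLExDUX4 runner 2 thus matched the WT runners, while FLExDUX4 runner 4 had 35 of 61 genes above its control mean and 16 of 61 above all of its controls. Leaving this mouse out gave 286 calls, all with the same sign in both genotypes, of which 93 were among the 95. Leaving out FLExDUX4 control 1 gave 17 calls, 16 of them among the 95.

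**Figure D5:**
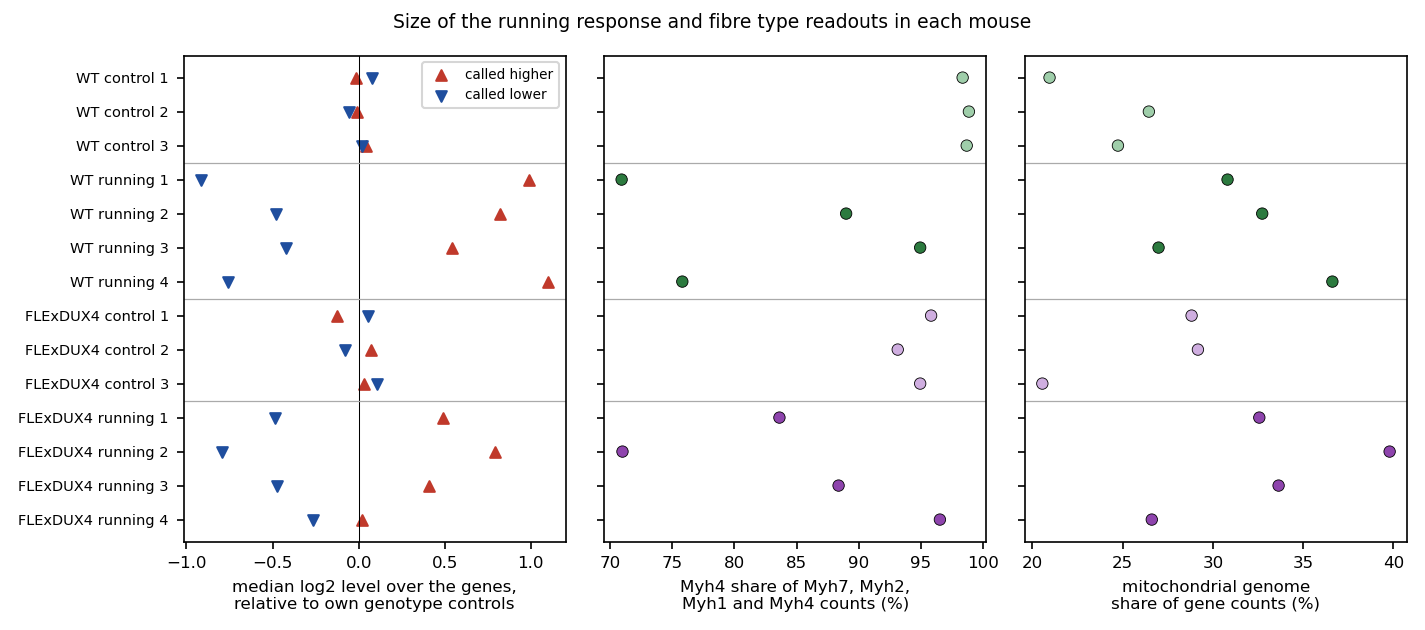
For each mouse (y axis), the left panel gives the median log2 level over the 61 genes that rose and the 34 that fell relative to controls of its genotype, the middle panel the Myh4 share of 4 adult myosin genes in percent and the right panel the mitochondrial genome share of gene counts in percent. FLExDUX4 runner 4, with medians of 0.02 and -0.27, has a Myh4 share of 96.5%, and WT runner 1, with 0.99 and -0.92, has 70.9%.

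The start regions of the called genes were read for letters that transcription factors of this response are known to bind. RefSeq windows on GRCm38.p6 held the 250 bases before the start for 48 of the 61 genes that rose, 23 of the 34 that fell and 8337 of the tested genes. The motifs were AAGGTCA, the site of the oestrogen-related receptors, and CACGTG, the E-box of the clock and of related factors, on either strand and without overlap between them. AAGGTCA was in 4 of 48 windows of genes that rose (8.33%), in 1 of 23 of genes that fell (4.35%) and in 3.44% of all. CACGTG was in 5 of 48 (10.4%), 3 of 23 (13%) and 10.4% of all. A match is no evidence of binding. The windows shown are those of Slc25a34, the ATP synthase c-ring genes, Myl12a and Tef, chosen as the named genes with the smallest p that hold one of the motifs, with the motif in capitals (TGACCTT is AAGGTCA on the other strand).
Slc25a34 (chr4:141623835-141624084, minus strand): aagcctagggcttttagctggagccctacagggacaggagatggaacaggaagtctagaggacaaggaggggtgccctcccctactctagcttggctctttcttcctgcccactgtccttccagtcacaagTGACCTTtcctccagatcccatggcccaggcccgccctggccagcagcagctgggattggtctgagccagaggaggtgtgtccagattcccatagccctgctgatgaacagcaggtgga
Atp5g3 (chr2:73911327-73911576, minus strand): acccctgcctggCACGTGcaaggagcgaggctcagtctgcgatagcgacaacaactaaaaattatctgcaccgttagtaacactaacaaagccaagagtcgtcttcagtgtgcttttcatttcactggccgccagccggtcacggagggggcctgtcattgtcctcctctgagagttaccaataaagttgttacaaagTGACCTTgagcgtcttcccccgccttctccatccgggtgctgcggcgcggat
Atp5g1 (chr11:96075632-96075881, minus strand): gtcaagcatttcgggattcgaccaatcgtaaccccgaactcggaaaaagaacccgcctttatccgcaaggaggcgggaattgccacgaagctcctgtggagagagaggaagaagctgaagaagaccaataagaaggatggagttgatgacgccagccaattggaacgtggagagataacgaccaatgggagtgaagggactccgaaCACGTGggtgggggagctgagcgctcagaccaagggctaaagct
Myl12a (chr17:71002534-71002783, minus strand): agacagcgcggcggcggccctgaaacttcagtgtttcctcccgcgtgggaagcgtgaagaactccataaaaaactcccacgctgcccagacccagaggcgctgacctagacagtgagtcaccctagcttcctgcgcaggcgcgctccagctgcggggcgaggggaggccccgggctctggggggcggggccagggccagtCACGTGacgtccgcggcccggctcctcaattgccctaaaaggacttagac
Tef (chr15:81811164-81811413, plus strand): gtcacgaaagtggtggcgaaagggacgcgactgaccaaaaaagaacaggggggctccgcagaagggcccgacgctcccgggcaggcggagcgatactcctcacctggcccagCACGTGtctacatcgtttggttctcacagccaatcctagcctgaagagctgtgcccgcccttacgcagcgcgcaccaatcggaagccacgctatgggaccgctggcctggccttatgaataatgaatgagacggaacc
The Slc25a34 motif begins 119 bases before the start. Atp5g3 holds CACGTG at 238 and AAGGTCA at 52 bases before its start. In Atp5g1 and Myl12a the E-box lies at 44 and 50 bases before the start. Tef has a further RefSeq start, whose window also holds CACGTG. Of the other motifs searched, the ETS site CCGGAAG was in 8.33% of windows of genes that rose and 16.4% of all, and TATAAA in 17.4% of windows of genes that fell and 8.12% of all.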

How the data were processed

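The deposited table holds raw read counts per gene for the 14 mice, and 1 mouse was 1 library. Per the labels' protocols, libraries were made with the QuantSeq 3′ FWD kit from 50 ng of RNA and sequenced as single reads. The submitters' processing notes list STAR 2.5.3a, featureCounts 1.6.2, cutadapt 1.16, FastQC 0.11.7 and DESeq2, and the builds GRCh38 and GRCm38. Strand setting, annotation release and treatment of multiply aligned reads are not given in the sources used here. The 99 spike-in sequences were set aside.

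Counts were scaled with TMM factors in edgeR 4.0.16 (R 4.3.3), filtered with filterByExpr at a minimum count of 10, and fitted by robust quasi-likelihood with 1 mean per group over all 14 mice. A gene counted as called when its p, adjusted by Benjamini-Hochberg over the 11088 tested genes, was under 0.05. The common biological coefficient of variation was 0.288. For the test in each genotype, the larger of the 2 p-values was used where signs were equal. P-values set the difference between groups against the spread between mice, which was estimated over all groups together and moderated across genes. Single-mouse log2 levels used a pseudocount of 0.5 CPM. The fit was also run on simulated counts with equal changes in both genotypes and independent spread between mice. That run does not bear on how the calls depend on single mice.

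Named genes were the 12 highest and 8 lowest called differences and the 10 smallest p-values among genes of at least 5 CPM in runners or controls, up to 5 called members of each of 34 lists, 11 genes always given, and the 3 called genes with the smallest p for the difference between genotypes. Symbols of Gm and digits, Rik, pseudogenes and mitochondrial tRNAs were left out of the rules on size and p. The comparison, the lists and these rules were chosen with earlier results of these data known. Of the lists, Tmem8c was not found in the table. Gene positions are from GENCODE M21 on GRCm38, in which 52403 of the 52550 identifiers were found. Alternatives were DESeq2 1.42.0, limma-voom in limma 3.58.1, RLE, upper quartile and spike-in scaling, other filters, an adjusted p threshold of 0.10, counts without mitochondrial genes, an additive model, 1 surrogate variable from sva 3.50.0, and mice left out. List counts under other scalings and without 3 of the mice were added after seeing the data.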

Additional observations from a re-analysis of the deposited data

Results flagged for a closer look

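Among the 65 named genes, 4 of the 130 groups of 4 runners held a mouse far from the other 3, where chance alone marks about 5% of such groups. In FLExDUX4 runner 2, Myl12a measured 349.6 CPM against 249.8 to 261.8 in the other FLExDUX4 runners, and Iqsec2 measured 18.6 CPM against 8.36 to 8.55. In WT runner 3, Rgs5 measured 183.5 CPM against 226.5 to 232.3 in the other WT runners. In WT runner 2, Pdk4 measured 493.9 CPM against 201.0 to 250.9.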

How the results depend on the processing

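All 54 named genes that were called kept the sign of their averaged difference in each of the 26 other settings that tested them. For mt-Co1 these were 25. None of the 54 kept its call in every setting. The differences of WT and FLExDUX4 had opposite signs in 2 settings for Fgf1 and for Plin5. They did so in 1 setting each for Etfb, Ryr1, Etfa and Myom3. A surrogate variable in the model left 2 calls (2 higher, 0 lower, 2 of like sign, 1 of them among the 95), and Egln3 lost its call without WT control 1, without FLExDUX4 control 1 and with FLExDUX4 control 1 and WT runner 2 both left out. Leaving out 1 mouse at a time, 13 kept their calls: Myl12a, Slc25a34, Palld, Pdlim1, Tmem233, Plbd1, Slc25a20, Atp5g1, Nr1d2, Tppp3, Tef, Mylk2 and Jph2. In those 14 settings the calls ran from 17 to 286, those higher from 9 to 196, those lower from 7 to 90, and those of like sign from 17 to 286. They were 22, 45 and 41 without WT controls 1, 2 and 3, 56, 123, 239 and 23 without WT runners 1 to 4, 17, 98 and 42 without FLExDUX4 controls 1 to 3, and 40, 32, 55 and 286 without FLExDUX4 runners 1 to 4. In the same settings, the test that required the difference in each genotype gave 0 to 1 calls. So did the test of the difference between genotypes. Among genes called in either genotype's own contrast, the like-signed share ran from 81.6% to 100%. This share had no value without WT control 1, where WT and FLExDUX4 both had 0 calls. FLExDUX4 control 1 and WT runner 2 left out together gave 24 calls (11 higher, 13 lower, 24 of like sign). DESeq2 gave 273 (174 higher, 99 lower, 271 of like sign), and an adjusted p threshold of 0.10 gave 236 (152, 84 and 235). No low-count filter gave 291 (191, 100 and 289), with 3 by the test that required both genotypes and 11 for the difference. Spike-in scaling gave 430 (419, 11 and 427), with 1 for the difference. Limma-voom gave 70, with 37 higher and a like-signed share of 100%. With the surrogate variable, the test that required both genotypes called 1 gene and the test of the difference called 2. The like-signed share was then 60%, or 3 of 5 genes. RLE and upper quartile factors, a filter of 1 CPM in 3 libraries, counts without mitochondrial genes and the additive model gave 94, 95, 100, 93 and 74 calls. The sign of 5 uncalled genes turned: Col1a1 to 0.12 with spike-in scaling, 0.048 without WT control 1 and 0.0084 without FLExDUX4 control 1 (range with 1 mouse left out -0.20 to 0.048), Vegfa to -0.42 with the surrogate variable and -0.025 without WT runner 1 (range -0.025 to 0.39), and Myh7, Ppargc1a and Cd68 to -1.63, -0.11 and 0.064 with the surrogate variable. The causes were not tested. No paired analysis was possible because the titles give mouse numbers that are not shared between groups, and litters are not named. Depth limits genes of a few CPM, where 1 CPM stood for 3.27 to 7 reads before TMM scaling.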

Other observations

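Called genes outside the lists and the naming rule, chosen after their values were seen, included further metabolic enzymes. Got1, the cytosolic aspartate aminotransferase of the malate and aspartate shuttle, rose by 0.85 on the log2 scale, Acss1, a mitochondrial acetyl-CoA synthetase, by 1.00, Ech1, an isomerase of fatty acid oxidation, by 0.63, and Ethe1, a mitochondrial sulfur dioxygenase, by 0.60. Slc16a1, which encodes the lactate and pyruvate transporter MCT1, rose by 0.65, and Nrp1, a co-receptor for VEGF, by 0.81. Srebf1, a transcription factor of lipid synthesis, fell by 0.62.

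Other called genes outside the lists fell. Atp1b2, a subunit of the sodium pump, fell by 0.56 on the log2 scale, Kcnj11, the pore of the ATP-sensitive potassium channel, by 0.50, Adcy9, an adenylyl cyclase, by 0.53, and Synm, an intermediate filament protein, by 0.46. The mitochondrial tRNA gene mt-Tt measured 47.1, 24.6 and 33.7 CPM in WT controls, 11.7, 5.15, 11.4 and 7.08 CPM in WT runners, 16.7, 11.5 and 31.0 CPM in FLExDUX4 controls and 7, 3.77, 8.13 and 15.4 CPM in FLExDUX4 runners. It fell by 1.59 while the protein-coding mitochondrial gene mt-Co1 rose by 0.49, and the counting of such short transcripts in 3′ libraries was not tested.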
